A study of Homo sapiens with 6 samples.

Results

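The 45 genes described here encode the machinery that takes newly made proteins into the endoplasmic reticulum (ER), attaches their first sugars and packs them for transport to the Golgi. They were picked by gene symbol from a list of known components, and all 45 were found among the 26789 genes of the deposited table. Where a symbol was repeated, the rule took the row with the highest mean. By role they form 8 groups: 7 genes of the translocon and its partners, 4 of the translocon-associated protein (TRAP) complex, 8 of the signal recognition particle (SRP) and its receptor, 5 of the signal peptidase, 6 of the oligosaccharyltransferase, 8 of the COPII coat, 3 of COPII assembly, and 4 cargo and retrieval receptors.

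Expression was measured in SK-N-SH cells, an established human neuroblastoma line labelled wild type, grown in serum-supplemented medium. Dopamine was present for 6 h in 3 samples, and 3 control samples were kept in medium without it, numbered 1 to 3 in each group. The dose of dopamine is printed without a usable unit in the labels and is not given here, and the series text names SH-SY5Y, a subline of SK-N-SH, as the treated line. Nothing states that replicates came from separate cultures, so p-values measure the spread between these libraries, which may be technical.

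Secreted and membrane proteins are recognised by SRP as they leave the ribosome and are handed through the SRP receptor to the SEC61 channel, where the signal peptidase removes the signal sequence and the oligosaccharyltransferase adds a preformed sugar chain. Correctly folded cargo leaves in vesicles coated by COPII, whose inner layer (SEC23 and SEC24) picks the cargo and whose outer layer (SEC13 and SEC31) shapes the vesicle, while KDEL receptors return escaped ER residents from the Golgi. Many of these genes belong to the known target programme of the unfolded protein response, in which XBP1 and ATF6 act on secretory capacity.

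None of the 45 genes passed the adjusted threshold, while most had higher mean values in dopamine-treated cells than in control cells. Values were FPKM (fragments scaled to gene length and library total), given for replicates 1, 2 and 3 in that order or as mean ± SD (n = 3 each), and 44 of the 45 genes reached a mean of 1 FPKM over the 6 libraries and were tested. SRP19, an RNA-binding SRP subunit, did not: it had 0.966, 1.00 and 0.975 FPKM with dopamine, against 0.832, 0.975 and 0.497 FPKM in control. Differences are dopamine minus control on the log2(FPKM + 0.5) scale, with p-values from limma adjusted over all 11791 tested genes. At an adjusted p under 0.05, 0 of the 44 passed, where 12 of all tested genes (0.102%) did. The smallest adjusted p was 0.11. With sample quality weights in the fit 21 of the 44 passed (22.9% of all tested genes), and without control replicate 1 20 passed (18.5% of all tested genes), with 15 genes in both sets. At an unadjusted p under 0.05, 28 of the 44 (63.6%) were higher with dopamine, against 24.4% of all tested genes, and 0 were lower, against 8.05%. All 3 dopamine values lay above all 3 control values for 24 genes (54.5%), against 24.4% of all tested genes, and below them for 1 gene, KDELR1, against 14.1%. The mean fold change was above 0 for 36 genes and below 0 for 8, with a median log2 fold change of 0.28 for the 44 genes and 0.08 for all tested genes.

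**Figure D1:**
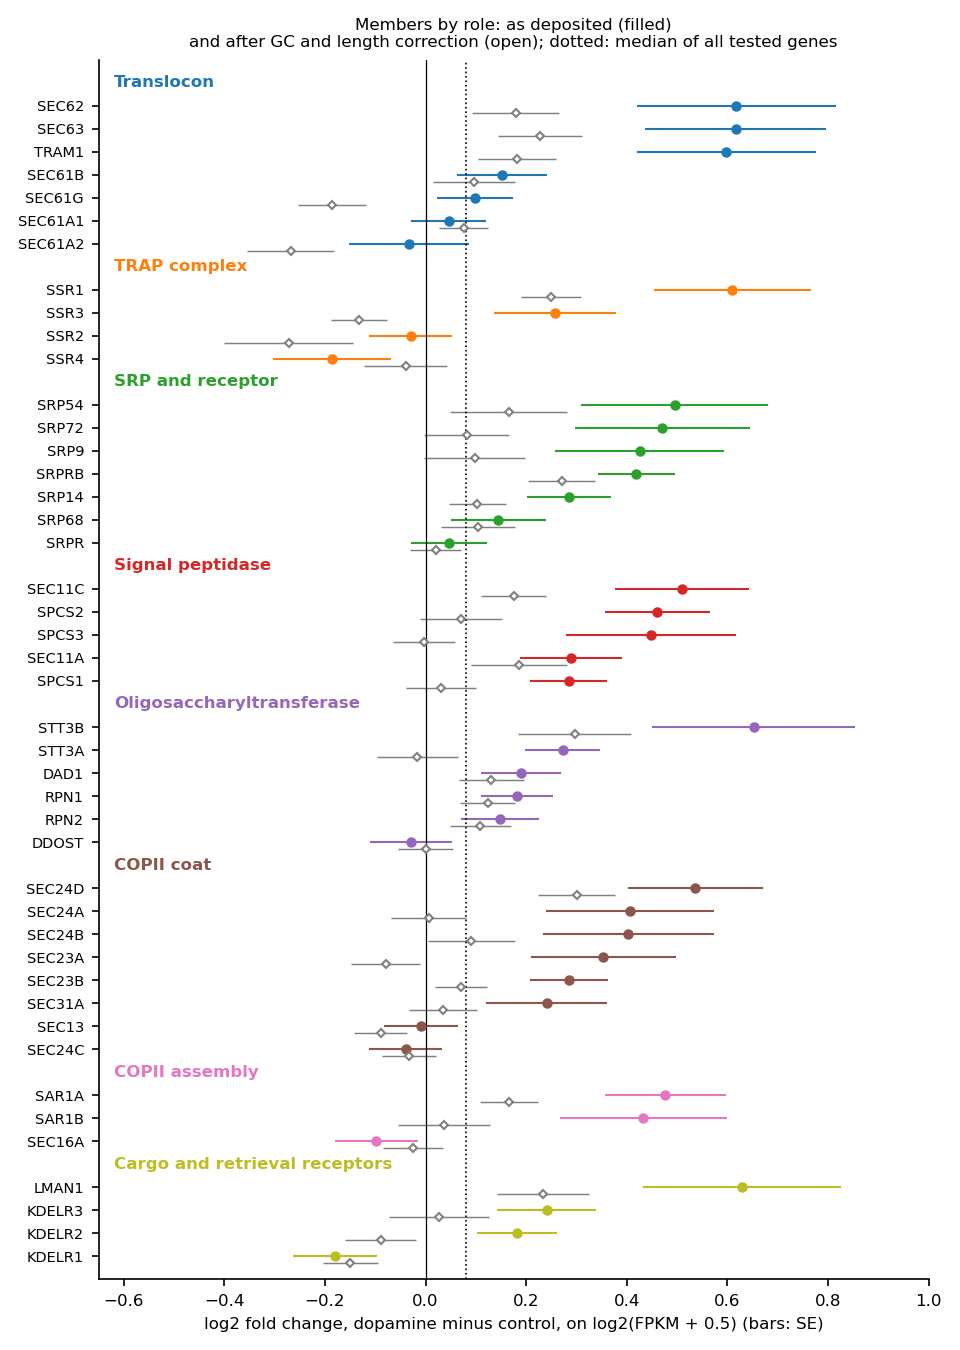
Log2 fold change (dopamine minus control, on the log2(FPKM + 0.5) scale) of the 44 tested genes by role, with SE as bars. Filled circles are values as deposited, open diamonds are values after correction for GC content and transcript length, and the dotted line is the median of all tested genes, 0.08. The filled circles run from -0.19 (SSR4) to 0.65 (STT3B), and most diamonds lie closer to 0.

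The size of these differences followed the GC content of the transcripts. Of the 23 tested genes with less than 45% GC in their longest transcript, 21 (91.3%) were higher at an unadjusted p under 0.05, with a median log2 fold change of 0.45. For all 3923 tested genes of that GC range the share was 55.1% and the median 0.36. Of the 11 genes at 50% GC or more, 1 (9.09%) was higher at that p, with a median of -0.01, and for all 5597 genes of that range the share was 2.84% and the median -0.10. The 10 genes between held 6 such genes (60%), against 25.1% of 2059 genes. Across the 44 genes, Pearson's r between GC content and log2 fold change was -0.78 and Spearman's rho -0.73, and across 11579 tested genes r was -0.75. These points share the same 6 libraries and are descriptive only. The median GC content was 44.7% for the 44 genes and 49.4% for all tested genes with a value.

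**Figure D2:**
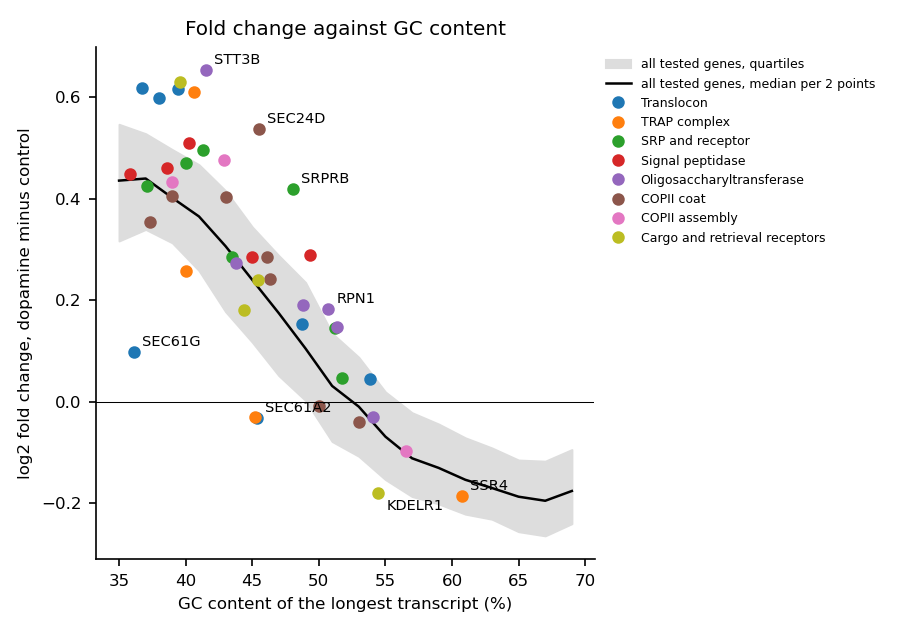
Log2 fold change (dopamine minus control) against GC content (%) of the longest transcript for the 44 genes, coloured by role. The black line is the median of all tested genes per 2 percentage points of GC and the grey band their quartiles. Points fall with GC content as the line does, with STT3B, SEC24D and SRPRB above the band and SEC61G, SEC61A2 and KDELR1 below it.

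A loess correction of each library for GC content and transcript length left the median log2 fold change at 0.07 for the 44 genes, against -0.00 for all 11579 genes with both properties. After it 0 of 44 passed the adjusted threshold (smallest adjusted p = 0.152), against 0.225% of all genes. At an unadjusted p under 0.05, 9 were higher (20.5%), against 8.37% of all genes, and 4 were lower, against 8.45%. The 9 were SEC63, TRAM1, SSR1, SRPRB, SEC11C, STT3B, SEC24D, SAR1A and LMAN1, all 9 of them among the 28 above, and the 4 were SEC61A2, SEC61G, SSR3 and KDELR1. All dopamine values lay above all control values for 10 genes, against 12.0% of all genes. They lay below all control values for SEC61A2, SEC61G, SSR3, SEC13 and KDELR1, against 12.0% of all genes. Since GC dependence differed between the groups, the correction can remove part of a treatment difference, and the 2 cannot be told apart in these libraries. Below, "corrected" refers to these values.

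The difference was also spread unevenly over the libraries. The median deviation of the 44 genes from their 6-library means was 0.06, 0.12 and 0.23 log2 units in dopamine replicates 1, 2 and 3, against -0.01, -0.15 and -0.22 in control replicates 1, 2 and 3. Dopamine replicate 3 held the highest value for 28 of the 44 genes and control replicate 3 the lowest for 24. The same libraries had the steepest GC dependence: the change in log2 value per 10 percentage points of GC was -0.03, -0.06 and -0.26 in dopamine replicates 1, 2 and 3, against 0.02, 0.11 and 0.22 in control replicates 1, 2 and 3. Without both libraries numbered 3, 14 genes in place of 28 were higher at an unadjusted p under 0.05, against 8.65% of all tested genes, and the median log2 fold change was 0.15. After correction the library medians ran from 0.00 to 0.05 with dopamine and from -0.05 to -0.02 in control.

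**Figure D3:**
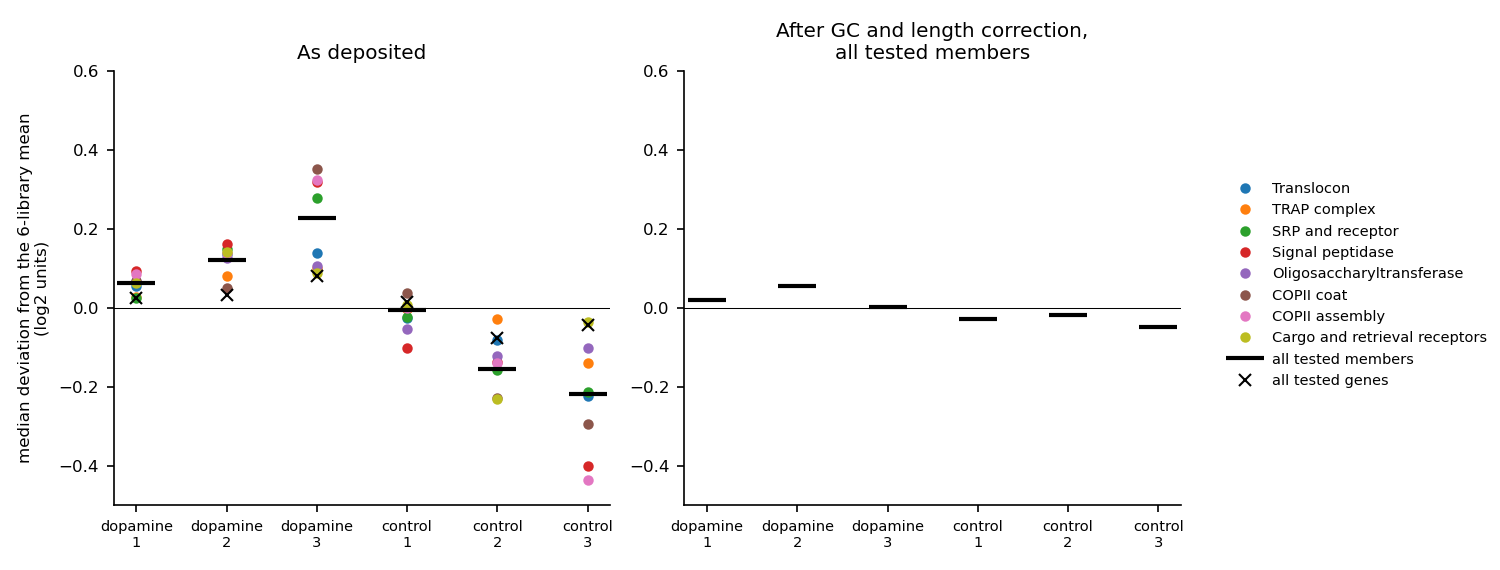
Median deviation from the 6-library mean (log2 units) in each library, for each role group (coloured points), all 44 tested genes (black bars) and all tested genes (crosses), as deposited (left) and, for the 44 genes, after GC and length correction (right). As deposited, dopamine replicate 3 lies highest at 0.23 and control replicate 3 lowest at -0.22, and after correction all 6 bars lie between -0.05 and 0.05.

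Libraries held 19394000 to 24236000 fragments, recovered from the steps between low pseudogene values, so 1 FPKM on a transcript of 1 kb stands for 19.4 to 24.2 fragments. The 7 neuroblastoma markers used were all expressed, at a summed 316 to 363 FPKM with dopamine and 316 to 359.8 FPKM in control, from ISL1 with a mean of 7.40 FPKM to HAND2 with 130.1 FPKM. At an unadjusted p under 0.05, 2 of the 7 differed, against 24.4% of all tested genes higher and 8.05% lower. PHOX2A was lower with dopamine (log2 fold change -0.25, -0.06 after the correction) and STMN2 higher (0.48, 0.18 after it). Summed Schwann and glial markers (4 genes) stayed at 1.35 to 1.82 FPKM with dopamine and 1.49 to 1.86 FPKM in control. Epithelial markers (4 genes) summed to 1.47 to 1.84 FPKM with dopamine and 1.90 to 2.15 FPKM in control, and blood and endothelial markers (3 genes) to 0.0273 to 0.0593 FPKM with dopamine and 0.0705 to 0.0933 FPKM in control. PTPRC, a marker of blood cells, was listed at 0 in 5 of the 6 libraries. RNAs listed as retained in the nucleus had higher means with dopamine in 5 of 5 cases, with 3 tested and 2 at an unadjusted p under 0.05. Of all tested genes 24.4% were higher at that p, and 55.1% of those under 45% GC. MALAT1, NEAT1 and TUG1, the 3 tested, had 40.3%, 44.1% and 43.1% GC. After the correction their unadjusted limma p-values were 0.153, 0.281 and 0.108. The sum over all 5 was 15.6 to 23.2 FPKM with dopamine, against 10.1 to 15.8 FPKM in control. Most of it was TUG1, with a mean of 12.2 FPKM over the 6 libraries, against 1.42 FPKM for MALAT1. The part of these RNAs in the results below was not tested. Cells were pooled within a library, so RNA per cell and the share of cells in a given state cannot be told apart.

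RefSeq promoter windows (GRCh38.p14, 250 bases before to 50 after each start) were found for 38 of the 45 genes, 52 windows in all, some of them of alternative starts that share sequence. Since many of the genes belong to the secretory programme of XBP1 and ATF6, letters of their known elements were searched on both strands, with 7 motifs in all. GCCACGT, which lies within the element bound by XBP1, was present in 22 of the 52 windows (42.3%, 16 genes), against 3.22% of all 35116 windows and 4.39% of the 11694 windows of tested genes. TGACGTGG, the core of the unfolded protein response element, was in 8 windows (15.4%), against 0.729% of all windows. The motifs overlap: TGACGTGG followed by C holds GCCACGT on the other strand. The ER stress element (CCAAT and CCACG with 9 bases between them) and its variant (ATTGG and CCACG with 1 base between them) were in 0 of the 52 windows, against 0.0769% and 0.0541% of all windows, as was the cAMP response element TGACGTCA, against 1.85%. TGACNNNGC, the antioxidant element, was in 21.2% of the windows and CCAAT in 40.4%, against 13.3% and 34.6% of all windows. The 15 tested genes with GCCACGT had a median log2 fold change of 0.35, with 9 higher at an unadjusted p under 0.05. The 22 without it had a median of 0.28, with 13 higher. Of all tested genes 24.4% were higher at that p. The median GC content was 42.9% with GCCACGT and 44.5% without it. After correction the median log2 fold changes were 0.03 and 0.09. The match is a description of letters and not of binding.

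The windows with TGACGTGG ahead of or across the start site are shown because they hold the element's core in full. Each is 60 bases, 5′ to 3′ on the gene's strand, with TGACGTGG or its reverse complement in capitals.
KDELR3 (chr22:38468024-38468083, plus strand): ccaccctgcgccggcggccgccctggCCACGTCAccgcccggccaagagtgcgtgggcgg
SEC23A (chr14:39103206-39103265, minus strand): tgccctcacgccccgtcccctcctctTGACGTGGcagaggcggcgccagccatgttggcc
SEC24A (chr5:134648580-134648639, plus strand): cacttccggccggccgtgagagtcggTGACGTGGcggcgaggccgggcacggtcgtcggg
SEC62 (chr3:169966764-169966823, plus strand): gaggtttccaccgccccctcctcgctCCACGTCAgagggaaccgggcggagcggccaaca
SRP19 (chr5:112861149-112861208, plus strand): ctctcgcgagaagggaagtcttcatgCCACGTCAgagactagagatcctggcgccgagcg
SSR3 (chr3:156554133-156554192, minus strand): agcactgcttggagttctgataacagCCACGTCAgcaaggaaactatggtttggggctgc
SSR4 (chrX:153794513-153794572, plus strand): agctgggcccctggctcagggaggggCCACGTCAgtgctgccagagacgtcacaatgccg
The element began 179 bases before the start in SEC24A, 129 in SSR4, 112 in SRP19, 46 in KDELR3, 41 in SSR3, 17 in SEC62 and 4 in SEC23A. The eighth gene, SEC16A, held it after the start. The 250 bases before the start of SRPRB and SSR1 are shown because these genes had the smallest corrected p-values of the 44. GCCACGT is in capitals, with 1 copy in SRPRB and 2 in SSR1.
SRPRB (chr3:133805565-133805814, plus strand): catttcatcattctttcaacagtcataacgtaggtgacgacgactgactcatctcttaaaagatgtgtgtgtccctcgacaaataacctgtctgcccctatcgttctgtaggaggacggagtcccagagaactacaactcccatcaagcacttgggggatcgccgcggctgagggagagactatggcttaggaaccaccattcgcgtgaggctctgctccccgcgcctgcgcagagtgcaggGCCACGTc
SSR1 (chr6:7313200-7313449, minus strand): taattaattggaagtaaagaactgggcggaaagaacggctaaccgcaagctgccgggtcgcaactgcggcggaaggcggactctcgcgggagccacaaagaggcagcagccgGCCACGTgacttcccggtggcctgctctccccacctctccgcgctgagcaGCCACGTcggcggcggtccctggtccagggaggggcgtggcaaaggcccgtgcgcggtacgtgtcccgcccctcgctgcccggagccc

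Among the translocon genes as deposited, SEC63, SEC62 and TRAM1 had the largest differences, higher with dopamine, while the channel subunits differed less. At an unadjusted p under 0.05, 3 of 7 were higher, against 24.4% of all tested genes. After correction 2 were higher (SEC63 and TRAM1) and 2 lower at that p, against 8.37% and 8.45% of all genes. The 2 lower ones were channel subunits, SEC61A2 with a corrected log2 fold change of -0.27 and SEC61G with -0.19. The median log2 fold change was 0.15, and after correction it was 0.10. SEC63, a J-domain protein that recruits the chaperone BiP to the channel, had 5.26, 5.27 and 6.68 FPKM with dopamine, against 4.50, 3.81 and 2.57 FPKM in control. It had a log2 fold change of 0.62 (SE 0.18, limma adjusted p = 0.11) and a corrected log2 fold change of 0.23 (adjusted p = 0.24). Every dopamine value lay above every control value, with dopamine replicate 3 the highest and control replicate 3 the lowest. SEC62, its partner in post-translational import, had 4.25, 4.94 and 6.13 FPKM with dopamine, against 3.90, 3.54 and 2.17 FPKM in control, with a log2 fold change of 0.62 (SE 0.20, limma adjusted p = 0.111). TRAM1, which helps nascent chains enter the membrane, had 25.8, 28.6 and 40.4 FPKM with dopamine, against 24.1, 21.2 and 16.4 FPKM in control, with a log2 fold change of 0.60 (SE 0.18, limma adjusted p = 0.11). Neither gene's groups overlapped, and both showed the same order, with replicate 3 highest among dopamine libraries and lowest among control libraries. The corrected values of SEC62 and TRAM1 were 0.18 and 0.18.

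SEC61A1, the pore-forming subunit, had 148, 149 and 138 FPKM with dopamine, against 135, 137 and 148 FPKM in control. Those groups overlapped, with control replicate 3 level with the dopamine libraries, and the log2 fold change was 0.05 (95% interval -0.12 to 0.21, adjusted p = 0.675). SEC61A2, its paralog, had 3.24, 3.54 and 4.07 FPKM with dopamine, against 3.71, 3.42 and 3.98 FPKM in control, with a log2 fold change of -0.03 (95% interval -0.30 to 0.24, adjusted p = 0.864) and a corrected value of -0.27. It made up 2.45 ± 0.381% with dopamine and 2.57 ± 0.124% in control of the summed FPKM of the pair, so the channel's transcripts came mainly from SEC61A1 in either group. SEC61B and SEC61G, the small subunits, averaged 30.9 ± 1.21 FPKM with dopamine and 27.8 ± 2.88 FPKM in control and 28.8 ± 0.254 FPKM with dopamine and 26.9 ± 1.66 FPKM in control. SEC61G had no overlap between its groups, higher with dopamine as deposited (log2 fold change 0.10) and lower after correction (-0.19), at a GC content of 36.1%.

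In the TRAP complex, which assists the translocation of selected precursors, SSR1 stood apart from the other subunits. SSR1 had 8.30, 8.97 and 11.2 FPKM with dopamine, against 7.46, 5.81 and 4.94 FPKM in control. It had a log2 fold change of 0.61 (SE 0.16, limma adjusted p = 0.11), its groups did not overlap, and its corrected log2 fold change was 0.25 (SE 0.06, adjusted p = 0.152). SSR3 had 39.5, 44.4 and 53.8 FPKM with dopamine, against 41.7, 39.1 and 33.7 FPKM in control, with a log2 fold change of 0.26 (SE 0.12, limma adjusted p = 0.17) and a corrected value of -0.13. Control replicate 1 of SSR3 lay above dopamine replicate 1. SSR4 had 26.7, 28.1 and 21.1 FPKM with dopamine, against 27.0, 31.9 and 27.2 FPKM in control, with a log2 fold change of -0.19 (SE 0.12, limma adjusted p = 0.279) and a corrected value of -0.04. SSR2 had 120.0, 120.1 and 103 FPKM with dopamine, against 114, 117 and 117 FPKM in control, with a log2 fold change of -0.03 (SE 0.08, limma adjusted p = 0.814) and a corrected value of -0.27. Both sets of groups overlapped, and dopamine replicate 3 was the lowest of the 6 libraries for each. The 4 subunits, parts of 1 complex, thus had GC contents of 40.6% (SSR1), 40.0% (SSR3), 45.2% (SSR2) and 60.8% (SSR4). At an unadjusted p under 0.05, 1 of the 4 was higher, against 24.4% of all tested genes. Over the complex the median log2 fold change was 0.11 as deposited and -0.09 after correction.

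Of the SRP genes, 5 of the 7 tested were higher with dopamine at an unadjusted p under 0.05, against 24.4% of all tested genes. The median log2 fold change of the 7 was 0.42. After correction 1 of the 7 was higher at that p, against 8.37% of all genes, with a median of 0.10. SRPRB had the smallest p of all 44 genes. SRPRB encodes the membrane-anchored GTPase subunit of the SRP receptor (ENSG00000144867.7, hg19 chromosome 3, 133502877 to 133544616). It had 17.7, 18.2 and 16.8 FPKM with dopamine, against 13.1, 13.0 and 13.0 FPKM in control. Its control values had an SD of 0.0553 FPKM, its dopamine values all lay above them, and dopamine replicate 3 was the lowest of the 3, unlike in most of the other genes. On the log2(FPKM + 0.5) scale it was 1.34-fold higher with dopamine, a log2 fold change of 0.42 (SE 0.08, 95% interval 0.25 to 0.59, limma adjusted p = 0.11). After correction it was 0.27 (SE 0.07, adjusted p = 0.152), and its GC content was 48.0%. Its gene span overlaps that of RAB6B, and strand use in counting was not given in the sources used here.

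The other receptor subunit, SRPR, had 79.1, 81.2 and 76.8 FPKM with dopamine, against 76.5, 71.5 and 81.8 FPKM in control. Those groups overlapped, with a log2 fold change of 0.05 (SE 0.08, limma adjusted p = 0.677). SRP14, which with SRP9 pauses elongation, had 129, 143 and 157 FPKM with dopamine, against 116, 117 and 117 FPKM in control, with a log2 fold change of 0.28 (SE 0.08, limma adjusted p = 0.11) and a corrected value of 0.10. Its groups did not overlap, and the control values were nearly equal while the dopamine values spread upward. SRP72, a scaffold subunit, had 17.1, 20.3 and 27.3 FPKM with dopamine, against 17.6, 16.0 and 12.3 FPKM in control, with a log2 fold change of 0.47 (SE 0.17, limma adjusted p = 0.122). Its dopamine replicate 1 lay below control replicate 1, and its corrected value was 0.08. SRP54, the GTPase that binds signal sequences, averaged 11.6 ± 2.47 FPKM with dopamine and 8.13 ± 2.02 FPKM in control, SRP9 64.9 ± 11.2 FPKM with dopamine and 48.5 ± 10.7 FPKM in control and SRP68 18.1 ± 1.14 FPKM with dopamine and 16.3 ± 1.56 FPKM in control, with log2 fold changes of 0.50, 0.43 and 0.14 and overlapping groups for each.

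**Figure D4:**
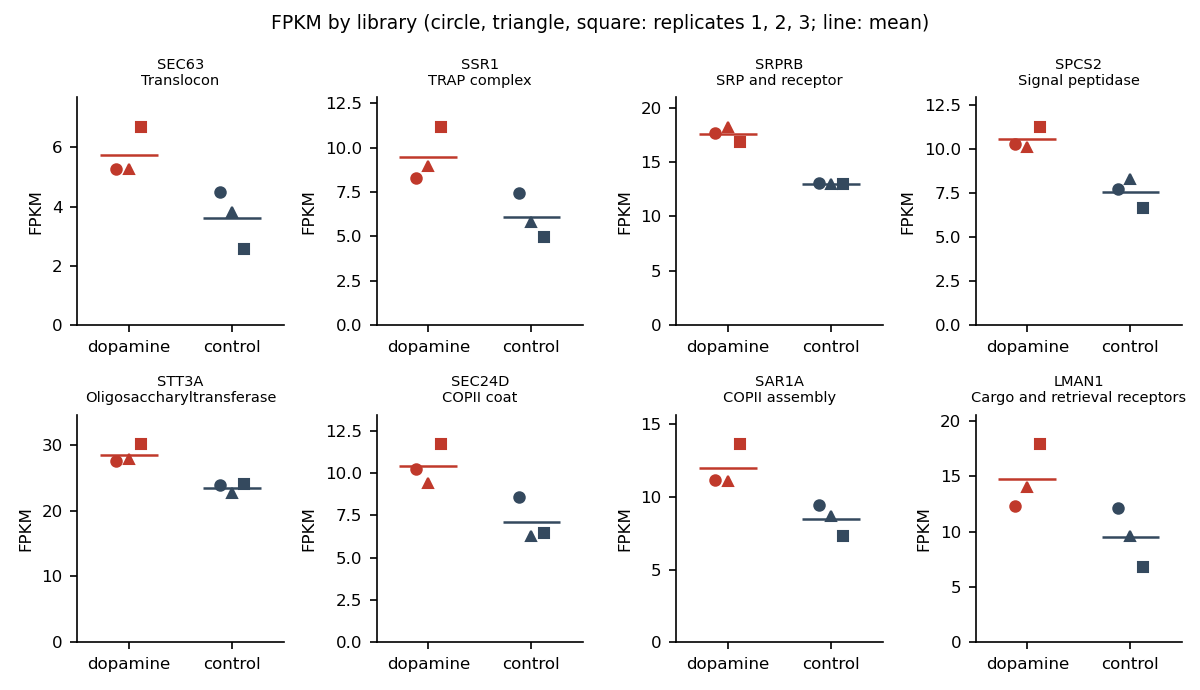
FPKM in each library for the gene with the smallest p in each of the 8 role groups, dopamine left and control right. Circles, triangles and squares are replicates 1, 2 and 3, and lines are means. Groups do not overlap in any of the 8 panels, which the choice by p favours. Over all 44 genes, 24 (54.5%) had all dopamine values above all control values, against 24.4% of all tested genes. Replicate 3 is the highest dopamine library in 7 of the 8 panels, and SRPRB is the exception.

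All 5 signal peptidase genes were higher with dopamine at an unadjusted p under 0.05, with a median log2 fold change of 0.45. For 4 of the 5, all dopamine values lay above all control values. Over all tested genes each share was 24.4%. After correction 1 of the 5 was higher at that p and 1 had no overlap, against 8.37% and 12.0% of all genes. SPCS2, an accessory subunit, had 10.3, 10.1 and 11.2 FPKM with dopamine, against 7.76, 8.28 and 6.62 FPKM in control, with a log2 fold change of 0.46 (SE 0.10, limma adjusted p = 0.11). SEC11C, a catalytic subunit, had 4.96, 5.36 and 6.63 FPKM with dopamine, against 4.08, 4.03 and 3.31 FPKM in control, with a log2 fold change of 0.51 (SE 0.13, limma adjusted p = 0.11). SPCS1 had 48.5, 49.8 and 49.2 FPKM with dopamine, against 43.2, 40.4 and 37.5 FPKM in control, with a log2 fold change of 0.28 (SE 0.08, limma adjusted p = 0.11). In all 3 the lowest dopamine value exceeded the highest control value. SEC11A, the other catalytic subunit, had 14.8, 15.2 and 16.6 FPKM with dopamine, against 13.0, 13.9 and 11.1 FPKM in control, with a log2 fold change of 0.29 (SE 0.10, limma adjusted p = 0.117). SPCS3, which is needed for cleavage, had 12.6, 13.6 and 16.6 FPKM with dopamine, against 13.1, 10.4 and 7.89 FPKM in control, with a log2 fold change of 0.45 (SE 0.17, limma adjusted p = 0.125). Dopamine replicate 1 of SPCS3 lay below control replicate 1. Corrected values were 0.17 for SEC11C and 0.19 for SEC11A, and 0.07, 0.03 and -0.00 for SPCS2, SPCS1 and SPCS3, with a median of 0.07 for the 5.

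Of the 6 oligosaccharyltransferase genes, 4 were higher with dopamine at an unadjusted p under 0.05 and 5 had no overlap. Over all tested genes each share was 24.4%. After correction 1 of the 6 was higher at that p and 2 had no overlap, against 8.37% and 12.0% of all genes. The median log2 fold change was 0.19 as deposited and 0.12 after correction. STT3A, the catalytic subunit that works on chains as they enter the ER, had 27.5, 27.8 and 30.0 FPKM with dopamine, against 23.9, 22.6 and 23.9 FPKM in control, with a log2 fold change of 0.27 (SE 0.07, limma adjusted p = 0.11) and a corrected value of -0.02. STT3B, the catalytic subunit that glycosylates sites STT3A leaves, had 12.3, 12.6 and 17.5 FPKM with dopamine, against 11.6, 8.88 and 6.35 FPKM in control, with a log2 fold change of 0.65 (SE 0.20, limma adjusted p = 0.11), the largest of the 44 genes, and a corrected value of 0.30 (adjusted p = 0.251). Neither gene's groups overlapped, and control replicate 3 was the lowest library for STT3B. RPN1, a structural subunit, had 94.5, 99.1 and 90.0 FPKM with dopamine, against 80.6, 83.8 and 85.2 FPKM in control, with a log2 fold change of 0.18 (SE 0.07, limma adjusted p = 0.13). DDOST had 199.8, 206 and 175 FPKM with dopamine, against 196, 199 and 196 FPKM in control, with a log2 fold change of -0.03 (SE 0.08, limma adjusted p = 0.82). RPN1 had no overlap, whereas dopamine replicate 3 of DDOST was below all other libraries. DAD1 averaged 155 ± 5.38 FPKM with dopamine and 136 ± 10.3 FPKM in control and RPN2 156 ± 4.06 FPKM with dopamine and 141 ± 10.2 FPKM in control, with log2 fold changes of 0.19 and 0.15 and no overlap for either.

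Of the 8 COPII coat genes, 5 were higher with dopamine at an unadjusted p under 0.05, against 24.4% of all tested genes. After correction 1 of the 8 was higher at that p, against 8.37% of all genes. The median log2 fold change was 0.32 as deposited and 0.02 after correction. SEC24D, a cargo-binding subunit of the inner coat, had 10.2, 9.41 and 11.7 FPKM with dopamine, against 8.57, 6.25 and 6.43 FPKM in control. It had a log2 fold change of 0.54 (SE 0.13, limma adjusted p = 0.11), and its corrected value was 0.30 (SE 0.08, adjusted p = 0.159). No control value reached the lowest dopamine value. SEC24C, its close paralog, had 47.7, 47.7 and 43.7 FPKM with dopamine, against 46.6, 47.1 and 49.2 FPKM in control, with a log2 fold change of -0.04 (SE 0.07, limma adjusted p = 0.713). SEC24A had 3.77, 3.63 and 5.05 FPKM with dopamine, against 3.78, 2.79 and 2.50 FPKM in control, with a log2 fold change of 0.41 (SE 0.17, limma adjusted p = 0.139). SEC24B had 7.20, 7.80 and 10.7 FPKM with dopamine, against 7.74, 6.07 and 5.24 FPKM in control, with a log2 fold change of 0.40 (SE 0.17, limma adjusted p = 0.143). Groups overlapped for SEC24A, SEC24B and SEC24C, where control replicate 1 exceeded at least 1 dopamine value. Their corrected values were 0.006, 0.09 and -0.03.

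SEC23B, which pairs with SEC24 and drives hydrolysis of GTP by SAR1, had 24.8, 25.9 and 27.1 FPKM with dopamine, against 22.4, 20.2 and 21.0 FPKM in control, with a log2 fold change of 0.29 (SE 0.08, limma adjusted p = 0.11). SEC23A, its paralog, had 4.22, 4.11 and 5.32 FPKM with dopamine, against 4.08, 3.40 and 2.91 FPKM in control, with a log2 fold change of 0.35 (SE 0.14, limma adjusted p = 0.138) and a corrected value of -0.08. Neither gene's groups overlapped as deposited, and the corrected value of SEC23B was 0.07. In the outer coat, SEC13 had 27.0, 26.0 and 24.8 FPKM with dopamine, against 26.6, 25.2 and 26.5 FPKM in control, with a log2 fold change of -0.01 (SE 0.07, limma adjusted p = 0.939). SEC31A averaged 25.4 ± 3.19 FPKM with dopamine and 21.4 ± 3.06 FPKM in control, with a log2 fold change of 0.24 (adjusted p = 0.188) and overlapping groups. Among the genes that start coat assembly, SAR1A, the GTPase that recruits the inner coat, had 11.2, 11.1 and 13.6 FPKM with dopamine, against 9.42, 8.70 and 7.28 FPKM in control, with a log2 fold change of 0.48 (SE 0.12, limma adjusted p = 0.11). SAR1B had 2.02, 2.30 and 2.47 FPKM with dopamine, against 1.93, 1.66 and 1.13 FPKM in control, with a log2 fold change of 0.43 (SE 0.17, limma adjusted p = 0.128). Both SAR1 genes had no overlap, and their corrected values were 0.17 and 0.04. The gene spans of SAR1B and SEC24A overlap, and 16 of the 45 spans overlap that of another tested gene, which leaves those values uncertain where counting ignored strand. SEC16A, the scaffold of ER exit sites, had 21.1, 20.6 and 18.3 FPKM with dopamine, against 20.7, 21.5 and 22.1 FPKM in control, with a log2 fold change of -0.10 (SE 0.08, limma adjusted p = 0.412) and overlapping groups.

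Of the 4 receptor genes, 3 had higher means with dopamine and 1, KDELR1, a lower one. LMAN1, a mannose lectin that carries glycoproteins out of the ER, had 12.3, 14.0 and 17.9 FPKM with dopamine, against 12.1, 9.57 and 6.78 FPKM in control, with a log2 fold change of 0.63 (SE 0.20, limma adjusted p = 0.111) and a corrected value of 0.23. KDELR3 had 9.28, 9.76 and 8.71 FPKM with dopamine, against 7.87, 7.04 and 8.37 FPKM in control, with a log2 fold change of 0.24 (SE 0.10, limma adjusted p = 0.136) and a corrected value of 0.03. KDELR2 had 72.6, 74.8 and 77.5 FPKM with dopamine, against 70.3, 60.5 and 67.6 FPKM in control, with a log2 fold change of 0.18 (SE 0.08, limma adjusted p = 0.149) and a corrected value of -0.09. None of these 3 genes had overlapping groups as deposited, each higher with dopamine, as for 24.4% of all tested genes. KDELR1 had 164, 163 and 144 FPKM with dopamine, against 169, 176 and 189 FPKM in control, with a log2 fold change of -0.18 (SE 0.08, limma adjusted p = 0.165) and an unadjusted p of 0.0591. All 3 of its dopamine values lay below all 3 control values, and the corrected log2 fold change was -0.15 (unadjusted p = 0.0256, adjusted p = 0.24).

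Ratios between paralogs compare the balance within a library and do not depend on its scaling. With 3 libraries against 3, the two-sided exact permutation test cannot go below p = 0.1, and p-values were adjusted over the 9 pairs. For 3 of the 9 pairs the groups did not overlap. The log2 ratio of SEC24D to SEC24C was -2.15 ± 0.23 with dopamine and -2.76 ± 0.28 in control (SD, n = 3 each), a difference of 0.61 (exact p = 0.1, adjusted p = 0.3), and of 0.33 with corrected values. The ratio of KDELR2 to KDELR1 was -1.07 ± 0.15 with dopamine and -1.43 ± 0.15 in control, a difference of 0.36 (exact p = 0.1, adjusted p = 0.3) and 0.06 with corrected values. The ratio of SEC11C to SEC11A was -1.47 ± 0.13 with dopamine and -1.73 ± 0.06 in control, a difference of 0.27 (exact p = 0.1, adjusted p = 0.3) and -0.01 with corrected values. The STT3B to STT3A ratio differed by 0.41 with overlapping groups (exact p = 0.3) and by 0.31 with corrected values. The other 5 differences ran from -0.08 (SEC61A2 to SEC61A1) to 0.11 (SEC23A to SEC23B), with exact p-values of 0.4 to 0.8. With corrected values these were -0.34 for SEC61A2 to SEC61A1, the largest in size of the 9, -0.15 for SEC23A to SEC23B, -0.08 for SEC24A to SEC24B, -0.13 for SAR1B to SAR1A and 0.11 for KDELR3 to KDELR2.

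In shares of the summed FPKM of a family, SEC24C held 66.7 ± 4.62% with dopamine and 74.4 ± 4.06% in control and SEC24D 15.0 ± 1.35% with dopamine and 11.0 ± 1.60% in control. KDELR1 held 65.0 ± 2.20% with dopamine and 70.6 ± 2.04% in control, KDELR2 31.1 ± 2.23% with dopamine and 26.3 ± 1.92% in control and KDELR3 3.83 ± 0.0926% with dopamine and 3.08 ± 0.161% in control. STT3A held 67.0 ± 3.37% with dopamine and 72.7 ± 5.91% in control. The main member of each family was the same in both groups: SEC24C, KDELR1, STT3A, SEC61A1, SEC23B (85.1 ± 1.38% with dopamine and 86.0 ± 1.66% in control), SAR1A (84.0 ± 1.07% with dopamine and 84.5 ± 1.81% in control) and SEC11A (73.4 ± 1.73% with dopamine and 76.9 ± 0.715% in control).

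**Figure D5:**
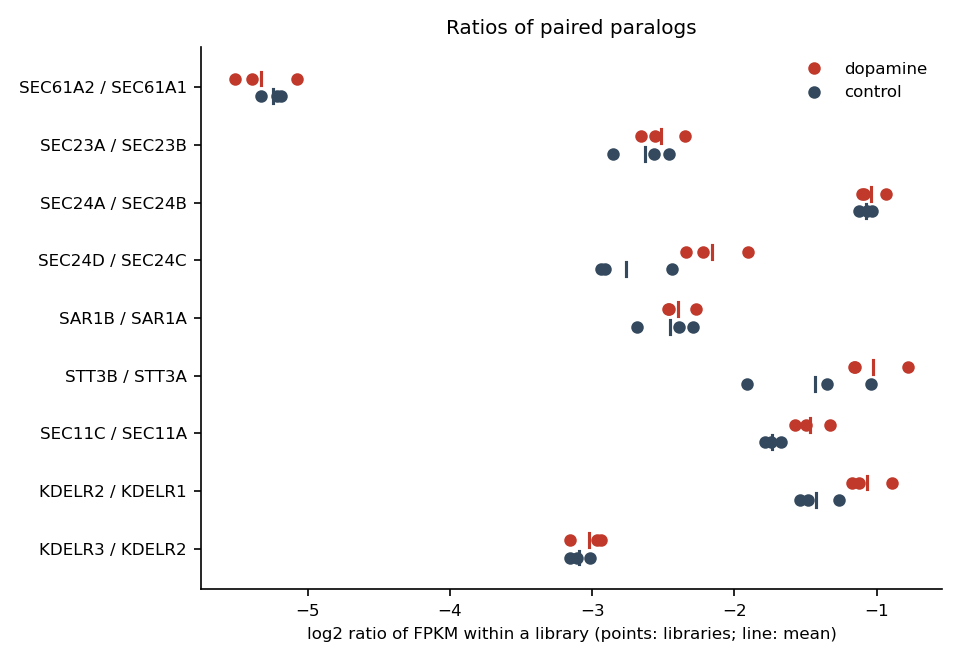
Log2 ratio of FPKM of 2 paralogs within each library for the 9 pairs, dopamine above control, with lines at the means. The points of the groups separate for SEC24D to SEC24C, SEC11C to SEC11A and KDELR2 to KDELR1, and overlap for the other 6 pairs.

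The other genes of these pathways came from textbook lists. Of 101 further genes, 92 were tested, 0 passed the adjusted threshold, 34 (37.0%) were higher with dopamine at an unadjusted p under 0.05, against 24.4% of all tested genes, and 7 were lower, against 8.05%. Their median log2 fold change was 0.09, against 0.08 for all tested genes. After correction 16 of 91 were higher (17.6%), against 8.37% of all genes, and 5 lower, against 8.45%, with a median of 0.02. By list, 3 of 5 further oligosaccharyltransferase genes, 6 of 19 of lipid-linked oligosaccharide synthesis, 1 of 6 glucosidases and folding sensors, 6 of 16 of tail-anchor insertion and the ER membrane complex, 5 of 11 of ER exit sites, 7 of 19 cargo receptors and 6 of 16 of the COPI coat were higher at that p. The 7 lower ones were 3 of lipid-linked oligosaccharide synthesis and 4 of tail-anchor insertion and the ER membrane complex. The 3 were DPM2, DPM3 and MPDU1, and the 4 were EMC10, SGTA, UBL4A and BAG6. Their log2 fold changes ran from -0.29 (UBL4A) to -0.21 (EMC10).

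Genes were picked here by the smallest p-values in each list. All had higher means with dopamine, unlike the lower genes named above. OSTC, a subunit of the STT3A form of the enzyme, had 27.5, 30.9 and 29.9 FPKM with dopamine, against 21.6, 22.2 and 16.6 FPKM in control, with a log2 fold change of 0.55 (SE 0.11, limma adjusted p = 0.11) and a corrected value of 0.32. MAGT1, an oxidoreductase of the STT3B form, had 11.9, 13.6 and 16.0 FPKM with dopamine, against 11.1, 8.37 and 7.70 FPKM in control, with a log2 fold change of 0.60 (SE 0.15, limma adjusted p = 0.11). Groups did not overlap for either gene, and the corrected value of MAGT1 was 0.22. ALG2, a mannosyltransferase that builds the sugar donor, had 11.5, 12.2 and 11.9 FPKM with dopamine, against 9.53, 8.17 and 8.52 FPKM in control, with a log2 fold change of 0.42 (SE 0.09, limma adjusted p = 0.11). ALG5, which makes its glucose donor, had 6.11, 5.92 and 7.14 FPKM with dopamine, against 5.24, 4.65 and 3.86 FPKM in control, with a log2 fold change of 0.45 (SE 0.13, limma adjusted p = 0.11). All dopamine values of both genes lay above the control values, and the corrected values were 0.14 for ALG2 and 0.26 for ALG5. UGGT1, a sensor that marks misfolded glycoproteins, had 14.5, 14.2 and 18.1 FPKM with dopamine, against 13.8, 10.9 and 9.64 FPKM in control, with a log2 fold change of 0.44 (SE 0.14, limma adjusted p = 0.111). UGGT2, its paralog, had 1.86, 1.96 and 2.50 FPKM with dopamine, against 1.89, 1.54 and 1.09 FPKM in control, with a log2 fold change of 0.39 (SE 0.18, limma adjusted p = 0.158). Only the groups of UGGT2 overlapped within this pair, and the corrected values were 0.19 for UGGT1 and -0.04 for UGGT2. CAMLG, a receptor for tail-anchored proteins, had 6.94, 7.46 and 7.91 FPKM with dopamine, against 5.81, 5.12 and 4.67 FPKM in control, with a log2 fold change of 0.48 (SE 0.11, limma adjusted p = 0.11). EMC7, of the ER membrane complex, had 40.0, 41.7 and 45.1 FPKM with dopamine, against 36.4, 31.6 and 32.5 FPKM in control, with a log2 fold change of 0.33 (SE 0.08, limma adjusted p = 0.11). Neither pair of groups overlapped, and the corrected values were 0.20 for CAMLG and 0.21 for EMC7.

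At ER exit sites, MIA3, which loads collagen and other large cargo, had 3.95, 4.17 and 5.16 FPKM with dopamine, against 3.41, 2.56 and 2.27 FPKM in control, with a log2 fold change of 0.61 (SE 0.16, limma adjusted p = 0.11). BET1, a SNARE protein of vesicle fusion, had 2.99, 3.48 and 3.99 FPKM with dopamine, against 2.40, 2.52 and 1.87 FPKM in control, with a log2 fold change of 0.53 (SE 0.14, limma adjusted p = 0.11). Both genes had no overlap, and the corrected values were 0.26 and 0.10. MCFD2, the partner of LMAN1, had 29.9, 29.9 and 37.0 FPKM with dopamine, against 25.6, 22.7 and 19.3 FPKM in control, with a log2 fold change of 0.51 (SE 0.12, limma adjusted p = 0.11). YIPF5, a membrane protein of the ER-Golgi vesicles, had 14.6, 14.4 and 16.7 FPKM with dopamine, against 12.3, 10.6 and 8.66 FPKM in control, with a log2 fold change of 0.52 (SE 0.13, limma adjusted p = 0.11). Again no control value reached the lowest dopamine value, and the corrected values were 0.23 for MCFD2 and 0.10 for YIPF5. In the COPI coat, COPB2 had 13.4, 13.2 and 17.4 FPKM with dopamine, against 12.0, 10.1 and 7.66 FPKM in control, with a log2 fold change of 0.55 (SE 0.16, limma adjusted p = 0.11). ARCN1 had 45.6, 45.7 and 56.1 FPKM with dopamine, against 43.2, 36.5 and 36.3 FPKM in control, with a log2 fold change of 0.34 (SE 0.11, limma adjusted p = 0.111). Neither gene's groups overlapped, and the corrected values were 0.12 and 0.04.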

How the data were processed

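RNA from 6 SK-N-SH samples was sequenced after removal of ribosomal RNA, with stranded libraries, per the labels' protocols. The authors deposited 1 table of FPKM values per gene with hg19 coordinates. The submitters' processing notes name STAR 2.7.1a, HTSeq 0.11.2, DESeq2 1.40.2 and FastQC 0.11.9, with no role stated. Annotation and strand setting were not given in the sources used here. FPKM divides by the library total, so abundant genes affect all others.

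The 3 dopamine samples were compared with the 3 control samples by limma 3.58.1 in R 4.3.3 on log2(FPKM + 0.5), which understates differences of low genes. A gene was tested if its mean reached 1 FPKM (two-sided, intensity trend, Benjamini-Hochberg adjustment over 11791 genes, threshold 0.05). The correction was a loess regression, with a span of 0.5, of the deviations in each library on the longest transcript's GC content and log2 length, taken by gene identifier from a GRCh38 annotation. It also removes the shift of all genes. Depth was recovered from FPKM steps of short pseudogenes, where 91.3 to 93.4% of the values used came out whole within 0.03. The fit was tested on simulated data.

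The 45 genes, the lists and the tests were chosen with earlier results of these data known. Values in all samples are given for the 3 genes with the smallest p and the 1 with the largest p of each role group, for genes of paralog pairs, and for the 2 with the smallest p of each further list. The others were summarised. Of the cell type markers, 1 is not reported here.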

Additional observations from a re-analysis of the deposited data

How the results depend on the processing

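Of 36 named genes of the machinery, 24 kept the sign of their log2 fold change under every alternative setting that gave them a value, 20 for 19 of these genes and 19 for SEC62, SEC63, SEC11C, SEC24A and SAR1B, which have none at a filter of mean FPKM 5. The count of genes past the adjusted threshold was 0 except with sample quality weights, where it was 21, and ran from 0 to 20 when single libraries were left out, with 20 without control replicate 1. The count higher at an unadjusted p under 0.05 was 28 as deposited, against 24.4% of all tested genes. It was 18 with median-of-ratios scaling, against 16.1% of all tested genes. Without both libraries numbered 3 it was 14, against 8.65%. It was 9 after GC and length correction, against 8.37% of all genes. When single libraries were left out it ran from 16 without dopamine replicate 3 to 27 without control replicate 1. The shares of all tested genes were then 11.3% and 30.7%. Without control replicate 3 it was 17, against 12.0%. The count lower at that p was 1 with median-of-ratios scaling, 1 with TPM scaling and 4 after GC and length correction. After that correction 10 genes in place of 24 had all dopamine values above all control values, against 12.0% of all genes. The median log2 fold change was then 0.073, and 16 of the other pathway genes were higher. Without both libraries numbered 3 the median was 0.15 and 20 other pathway genes were higher. Leaving out single libraries gave medians of 0.24 to 0.32 and 23 to 39 other pathway genes. Paralog pairs without overlap numbered 3, and 3 to 5 with single libraries left out (5 without dopamine replicate 3). Scaling moved the all-gene median, which was 0.08 as deposited, 0.00 with median-of-ratios scaling, -0.01 with quantile normalization and 0.10 with TPM scaling.

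Replicate numbers were not shown to pair the samples: deviations of same-numbered libraries correlated at -0.20, 0.28 and -0.37. With the replicate block 18 genes were higher at an unadjusted p under 0.05, against 15.6% of all tested genes. With the block and the GC and length correction 9 were higher, against 8.37% of all genes, and 4 lower. All dopamine values lay above all control values for 10. The median was then 0.073, and 20 other pathway genes were higher.

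These log2 fold changes turned their sign, and the cause was not tested. With median-of-ratios scaling SEC61A1 was at -0.045 and SRPR at -0.044. With quantile normalization SSR2 was at 0.019 and DDOST at 0.042. With sample quality weights SSR2 was at 0.023, DDOST at 0.021, SEC13 at 0.044 and SEC24C at 0.0034. After GC and length correction, with or without the replicate block, SSR3 was at -0.13, SPCS3 at -0.0033, DDOST at 0.00010, STT3A at -0.017, SEC23A at -0.079 and KDELR2 at -0.089. Without both libraries numbered 3, SSR2 was at 0.049, DDOST at 0.038, SEC13 at 0.034 and SEC24C at 0.025. Leaving out single libraries gave -0.11 to 0.035 for SEC61A2, -0.068 to 0.045 for SSR2, -0.075 to 0.042 for DDOST, -0.038 to 0.023 for SEC13, -0.061 to 0.0017 for SEC24C and -0.0020 to 0.095 for SRPR. The log2 ratio of SAR1B to SAR1A differed by -0.043 with a pseudocount of 0.5. SRP19 and SAR1B, with mean FPKM of 0.875 and 1.92, rest on the fewest fragments per unit length of the 45 genes.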
